A study of Mus musculus with 3 samples.

Results

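The nuclear genes for subunits of the mitochondrial respiratory chain and ATP synthase were followed in newborn mouse liver progenitors. They were taken by symbol from the deposited gene rows, as names starting with Ndufa, Ndufb, Ndufc, Ndufs, Ndufv, Uqcr, Cox4 to Cox8 or Atp5, plus Sdha to Sdhd. Assembly factors named Ndufaf, symbols with -ps and mitochondrially encoded genes were left out. This gave 85 genes of 32285, of which 38 carry complex I names, 4 complex II, 8 complex III, 18 complex IV and 17 complex V names. Ndufa4 and its paralog Ndufa4l2 bear complex I names and count there in sums by complex, but their products belong with complex IV and they are described with it below.

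The respiratory chain passes electrons from NADH and succinate to oxygen through complexes I to IV and pumps protons across the inner mitochondrial membrane, and complex V, the ATP synthase, uses that gradient to make ATP. Catalysis rests on a few core subunits, several of them encoded in mitochondrial DNA, while most nuclear subunits are small accessory proteins that stabilize or connect the complexes. Blood stem cells are known for relying little on respiration, and red cell precursors for a heavy mitochondrial load before they lose the organelle.

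The samples were 3 libraries of Lin-Kit+ liver cells (lineage-negative, KIT-positive blood progenitors) taken on postnatal day 0. One library came from mice carrying the leukemia fusion MLL-ENL with Skida1 deleted (Skida1-deleted below), one from MLL-ENL mice and one from Control mice. RNA was counted per cell by CITE-seq with the 10x 3' chemistry. The promoter or Cre that drives the fusion or the deletion, the allele deleted, the number of animals pooled and the genotype of Control are not stated in the labels. With 1 library per genotype no difference could be set against a spread between animals, so no test was run, and brackets are 95% intervals for counting error only. The contrast of Skida1-deleted with MLL-ENL and that of MLL-ENL with Control share the MLL-ENL library.

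The matrices held 207395090, 198773992 and 180656900 gene UMIs (counted RNA molecules) in Skida1-deleted, MLL-ENL and Control, and 9344, 10807 and 5394 cells were kept. Between 17 and 33 barcodes were shared by each pair of libraries. Clusters were named from marker lists, and those of 100 or more cells in each library were compared, which were stem and multipotent progenitor-like (HSPC-like), granulocyte progenitor-like, megakaryocyte-like, basophil-mast-like and erythroid-like cells. HSPC-like cells numbered 2431 in Skida1-deleted, 1819 in MLL-ENL and 1223 in Control, with medians of 9162, 10414 and 15425 UMIs per cell. Erythroid-like cells numbered 3495, 5928 and 3455, with medians of 29540, 8903 and 34589 UMIs, and 2982 of the MLL-ENL ones formed a low-depth cluster. Control HSPC-like cells came almost wholly from cluster 4 and those of the fusion libraries from clusters 7, 16 and 21, so library and cluster cannot be told apart in the contrast with Control. Erythroid-like cells were divided in the same way, with 1245, 1340 and 827 of the 3455 Control cells in clusters 0, 1 and 3 and nearly all fusion cells in clusters 8, 17, 19, 22, 23 and 24. Most granulocyte progenitor-like, megakaryocyte-like and basophil-mast-like cells of all 3 libraries lay in shared clusters. The summed level of the 20 HSPC markers in HSPC-like cells was 2370, 2377 and 2569 CPM (UMIs scaled to the class total in that library), with no marker at 0. Skida1 itself stood at 1.71, 15.7 and 0.977 CPM in these cells. The Y-linked gene Ddx3y had 74.8 CPM in Skida1-deleted HSPC-like cells and 0 in the other libraries, so the sex of the pups also differed between the fusion libraries. Only Ndufa1, Ndufb11 and Cox7b of the 85 genes are X-linked.

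Among the 85, the 4 genes that stood at least 1.5-fold apart between Skida1-deleted and MLL-ENL in every compared lineage were Sdhd, Atp5k, Atp5md and Ndufa3, and their promoter windows are printed here because the results below turn on them. The windows are RefSeq sequence on GRCm38.p6, 250 bases before to 50 after the gene's start, 5′ to 3′ on the gene's strand. Capitals mark matches, on either strand, to GCGC and GCGC with any 2 bases between them, the core letters bound by NRF1, or to CCGGAAG, bound by ETS factors such as GABP. Sdhd lies at chr9:50603800-50604099 on the minus strand, Atp5k at chr5:108434350-108434649 on the minus strand, Atp5md at chr19:47090598-47090897 on the minus strand and Ndufa3 at chr7:3617123-3617422 on the plus strand, where neither motif's letters were found.
Sdhd: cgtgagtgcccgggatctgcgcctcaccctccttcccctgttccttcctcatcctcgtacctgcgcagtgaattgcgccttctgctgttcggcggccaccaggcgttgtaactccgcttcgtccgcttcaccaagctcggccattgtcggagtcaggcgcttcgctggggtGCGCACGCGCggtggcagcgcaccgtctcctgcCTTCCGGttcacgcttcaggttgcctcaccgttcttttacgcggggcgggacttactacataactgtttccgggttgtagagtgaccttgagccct
Atp5k: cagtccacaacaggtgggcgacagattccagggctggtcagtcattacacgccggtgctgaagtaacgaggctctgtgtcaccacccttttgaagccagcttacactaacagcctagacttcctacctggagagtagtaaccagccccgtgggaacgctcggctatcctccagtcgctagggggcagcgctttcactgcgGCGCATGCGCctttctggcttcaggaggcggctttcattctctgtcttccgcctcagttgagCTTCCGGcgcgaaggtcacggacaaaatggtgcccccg
Atp5md: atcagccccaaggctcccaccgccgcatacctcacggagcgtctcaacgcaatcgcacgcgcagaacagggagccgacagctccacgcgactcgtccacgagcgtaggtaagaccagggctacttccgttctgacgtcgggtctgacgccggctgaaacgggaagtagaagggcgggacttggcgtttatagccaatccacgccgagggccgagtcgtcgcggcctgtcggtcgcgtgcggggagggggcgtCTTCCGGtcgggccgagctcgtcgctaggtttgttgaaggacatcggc
Ndufa3: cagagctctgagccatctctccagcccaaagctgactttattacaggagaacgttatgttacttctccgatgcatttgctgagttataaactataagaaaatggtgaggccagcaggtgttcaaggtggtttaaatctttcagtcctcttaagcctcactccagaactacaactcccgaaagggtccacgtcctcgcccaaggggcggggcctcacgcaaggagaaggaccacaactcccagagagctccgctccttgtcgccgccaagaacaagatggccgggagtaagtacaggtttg

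Across the family, 69 of the 85 genes had a promoter window. The NRF1 letters occurred in 19 of the 69 (27.5%), against 7.0% of 27025 genes with such a window. The ETS letters occurred in 17 (24.6%), against 9.93% of all genes, and AAGATGGCG, the core letters bound by YY1, in 7 (10.1%), against 1.64%. The ETS letters end in the AAG with which the YY1 letters begin, and GCG occurs in both the NRF1 and the YY1 letters, but no member's window held matches of different motifs that shared bases. Among the 27 members with a window that passed 1.5-fold upwards in MLL-ENL over Control HSPC-like cells, 6 held the NRF1 letters, 8 the ETS letters and 3 the YY1 letters. Among the 38 that passed 1.5-fold in neither direction the counts were 13, 9 and 4. These are descriptions of letters in a window, not of bound sites.

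Together the 85 genes made up more of the RNA in both fusion libraries than in Control in every lineage. In HSPC-like cells they summed to 24302 CPM [24242–24364] in Skida1-deleted, 23467 [23402–23532] in MLL-ENL and 20088 [20027–20150] in Control. In erythroid-like cells the sums were 32586, 31461 and 26046 CPM. Both fusion libraries thus lay above Control, and the step between the fusion libraries was the smaller one. MLL-ENL over Control was 1.17-fold [1.163–1.173] in HSPC-like and 1.21-fold in erythroid-like cells, 1.16-fold in granulocyte progenitor-like, 1.22-fold in megakaryocyte-like and 1.24-fold in basophil-mast-like cells. Skida1-deleted over MLL-ENL was 1.04-fold in the HSPC-like, granulocyte progenitor-like and erythroid-like classes, 1.03-fold in megakaryocyte-like and 1.07-fold in basophil-mast-like cells. Per cell the pattern was the same, with a median share of a HSPC-like cell's UMIs of 2.31% in Skida1-deleted, 2.22% in MLL-ENL and 1.92% in Control. In the clusters that held most fusion HSPC-like cells, Skida1-deleted and MLL-ENL stood at 24478 and 23950 CPM in cluster 7, 19089 and 18648 CPM in cluster 16, and 25742 and 25125 CPM in cluster 21, while Control cluster 4 stood at 20102 CPM. Clusters 7 and 21 lay above Control and cluster 16 below it. On the log2 scale the HSPC-like sum of MLL-ENL over Control was 0.22, and it was 0.10 when cells with a high mitochondrial share were kept. That setting also clustered all cells anew. Its HSPC-like class held 1187 MLL-ENL and 1167 Control cells, where the main one held 1819 and 1223. The part of the added cells and that of the regrouping were not separated.

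Other measures also differed between the libraries, some in the order of these sums and some not, and their part in the sums was not tested. Ribosomal protein genes took 32.9% of HSPC-like UMIs in Skida1-deleted, 32.0% in MLL-ENL and 27.2% in Control. The summed level of 5 mitosis genes was 824, 699 and 1247 CPM in the same cells, and globin took 0.0376%, 0.0495% and 0.0535% of UMIs. The 11 hepatocyte markers summed to 62.8, 62.0 and 54.5 CPM in HSPC-like cells, with Apob at 0 in all 3 libraries. The 23 erythroid markers found summed to 659, 810 and 912 CPM there, with Hbb-bh1 and Slc4a1 at 0 in Control.

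**Figure D1:**
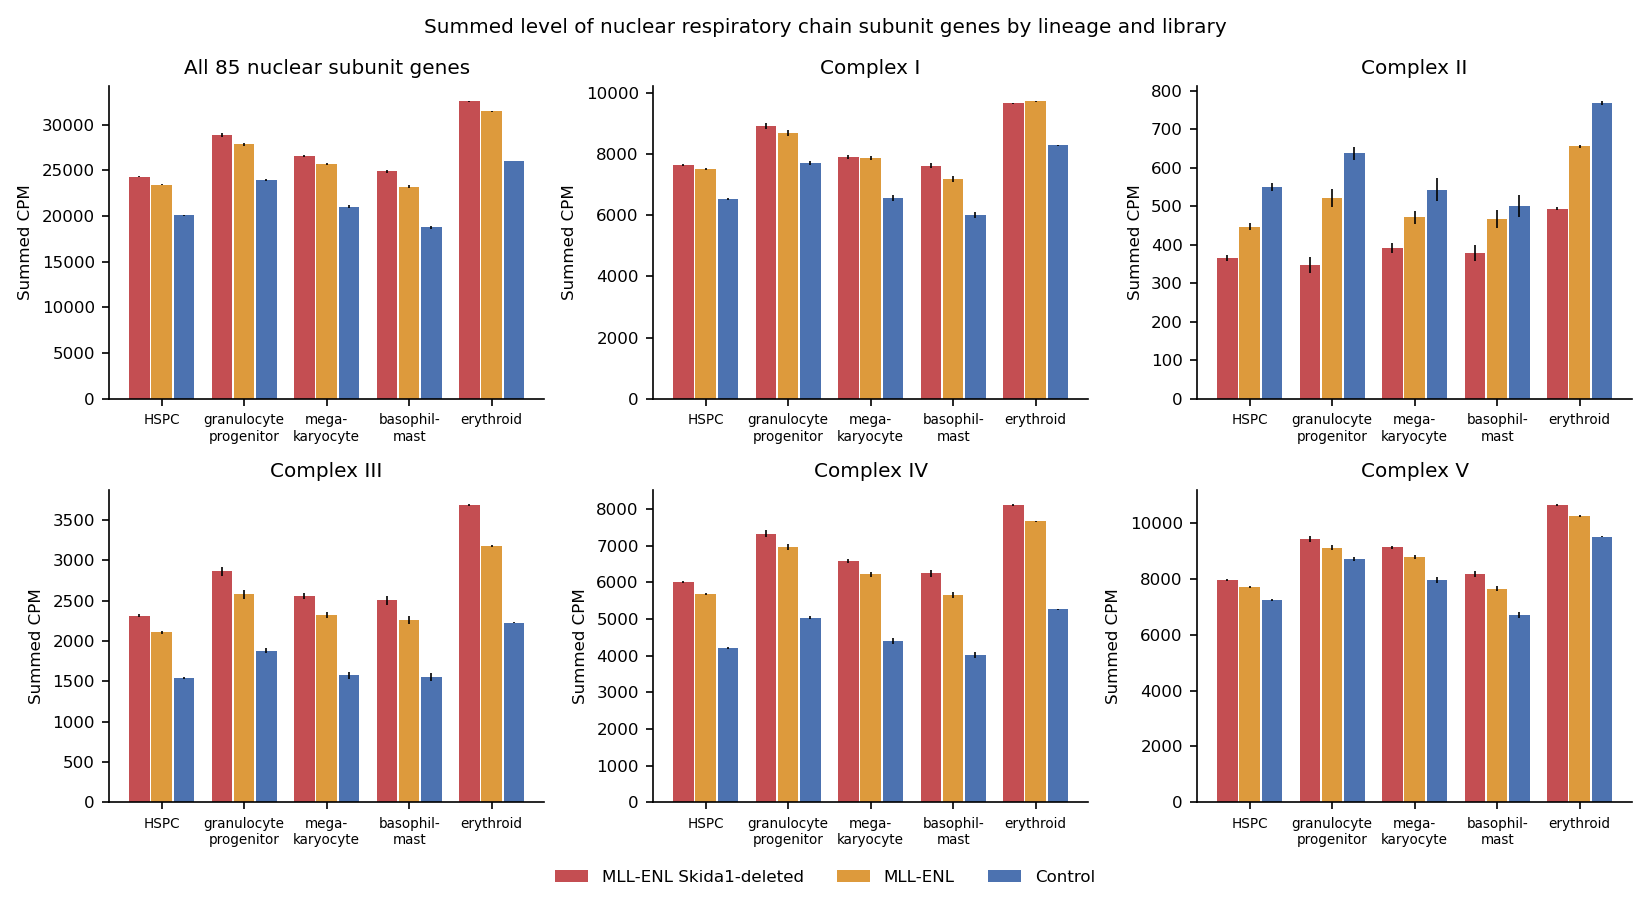
Summed level (CPM, linear axis from 0) of all 85 nuclear subunit genes and of complexes I to V by lineage, with bars for MLL-ENL Skida1-deleted, MLL-ENL and Control and 95% Poisson intervals for counting error as error bars. Complexes III and IV stand higher in both fusion libraries than in Control in every lineage, and complex II runs the other way, with 365 CPM in Skida1-deleted, 447 in MLL-ENL and 549 in Control HSPC-like cells.

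The complexes did not move alike. Complex III, which passes electrons from ubiquinol to cytochrome c, summed to 2312, 2110 and 1540 CPM in Skida1-deleted, MLL-ENL and Control HSPC-like cells. Complex IV, which reduces oxygen, summed to 6008, 5683 and 4215 CPM. MLL-ENL over Control was 1.37-fold for complex III [1.350–1.390] and 1.35-fold for complex IV [1.337–1.360], more than for complex I at 1.15-fold [1.141–1.157] and complex V at 1.06-fold [1.057–1.072]. Complex II, the succinate dehydrogenase that also serves the citric acid cycle, was the exception at 0.815-fold [0.793–0.837]. Skida1-deleted over MLL-ENL was 1.10-fold for complex III, 1.06-fold for complex IV, 1.03-fold for complex V, 1.02-fold for complex I and 0.816-fold for complex II [0.793–0.840]. The order in erythroid-like cells was similar, with complex IV at 1.46-fold, complex III at 1.43-fold and complex II at 0.853-fold in MLL-ENL over Control.

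Gene by gene, 79 of the 85 passed the filter on low counts in HSPC-like cells of MLL-ENL and Control, which asked for a mean of at least 10 CPM and at least 50 UMIs over both libraries. Of these, 32 stood 1.5-fold or more above Control in MLL-ENL, where 6.19% of all 7959 measured genes were, and 2, Cox4i2 and Ndufv1, were at least 1.5-fold lower, where 13.9% were. Above 1 lay 45 members, where 38.7% of genes did. The median log2 ratio of the members was 0.20, against −0.12 for all measured genes. When cells with a high mitochondrial share were kept and all cells were clustered anew, 26 members were higher and 9 lower, with a median of 0.08. In erythroid-like cells 35 of 79 were higher (all genes 5.03%) and 2 lower (11.5%), with medians of 0.33 and −0.13, and this comparison too is between different clusters. The counts of higher and lower members were 33 and 2 in granulocyte progenitor-like cells (all genes 5.81% and 18.2%), 33 and 0 in megakaryocyte-like cells (6.77% and 16.7%) and 34 and 1 in basophil-mast-like cells (7.53% and 15.1%). Over the 78 genes measured in all 5 lineages, 28 were at least 1.5-fold higher in each lineage, where 2.23% of the 6269 genes so measured were, and 0 at least 1.5-fold lower in each, where 2.54% were. Another 25 members lay below 1 in all 5, a smaller share than the 39.9% of all such genes.

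The members are described by the place of the subunit in its complex. The grouping into such places was drawn after values had been seen, is a description only, and several places held members on both sides of 1. All 7 nuclear core subunits of complex I lay below 1 in MLL-ENL over Control HSPC-like cells, with a median log2 ratio of −0.53. Their summed level was 838 CPM in MLL-ENL, against 1209 CPM in Control. Ndufv1, which carries the NADH-binding flavin, stood at 75.6 CPM in Skida1-deleted, 72.5 in MLL-ENL and 128 in Control, so that the fusion libraries lay together below Control. It was the 1 nuclear core subunit of complex I past the threshold, 1.77-fold lower in MLL-ENL than in Control [1.66–1.89]. Ndufs7, an iron-sulfur subunit at the ubiquinone site, had 168, 167 and 248 CPM. Ndufs1, the iron-sulfur subunit that takes electrons onward from the flavin arm, was nearest to level at 40.0, 41.9 and 46.7 CPM. All 7 remained below 0 on the log2 scale in MLL-ENL over Control HSPC-like cells under all 11 other settings run for them. In the other lineages all 7 were below 1 as well, except Ndufs1 in basophil-mast-like cells. There it had 44.5 CPM in Skida1-deleted, 53.2 in MLL-ENL and 35.2 in Control, on 141, 175 and 81 UMIs. It was 1.51-fold higher in MLL-ENL than in Control [1.16–1.99]. Core subunits of complex I encoded in mitochondrial DNA ranged from 0.989-fold for mt-Nd2 to 1.92-fold for mt-Nd3 in MLL-ENL over Control HSPC-like cells.

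The 29 accessory subunits of complex I spread to both sides in MLL-ENL over Control, with 19 above 1 and 10 below, a median log2 ratio of 0.53 and 13 at least 1.5-fold higher. Ndufb2, a small membrane subunit, led with 174 CPM in Skida1-deleted, 143 in MLL-ENL and 64.9 in Control, or 2.20-fold higher in MLL-ENL than in Control [2.06–2.35]. Ndufc1 had 208, 163 and 78.5 CPM, and the X-linked Ndufa1 had 116, 101 and 48.2 CPM. Both fusion libraries were above Control for each of these. At the other end stood Ndufa10, a larger matrix-side subunit, with 132, 131 and 179 CPM and a log2 ratio of −0.44 in MLL-ENL over Control. Ndufa1 lies over another protein-coding gene, Rnf113a1, and reads of overlapping genes may not be separable.

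In complex III the core and the small subunits lay on opposite sides of 1. The cytochrome bc1 core proteins Uqcrc1 and Uqcrc2 and the Rieske iron-sulfur protein Uqcrfs1 were all below 1 in MLL-ENL over Control, with a summed fold of 0.747. Uqcrfs1 stood at 123 CPM in Skida1-deleted, 137 in MLL-ENL and 198 in Control HSPC-like cells. The 5 small subunits all passed 1.5-fold upwards in MLL-ENL, summing to 1699 CPM, against 990 CPM in Control. Uqcr11, a small membrane subunit, had 362, 255 and 125 CPM, and Uqcr10 had 346, 251 and 140 CPM. Uqcrh, the acidic hinge protein, had 580, 611 and 388 CPM, but has 2 annotated -ps copies whose reads could be confused with its own. Uqcrh and Uqcrb, at 311, 318 and 189 CPM, were nearly level between the fusion libraries, whereas Uqcr10 and Uqcr11 were higher again in Skida1-deleted.

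Complex IV had 14 measured members with Ndufa4 included, of which 8 were 1.5-fold or more higher in MLL-ENL than in Control HSPC-like cells. Cox6b2 was highest at 2.44-fold [2.25–2.66]. Cox6c had 666 CPM in Skida1-deleted, 580 in MLL-ENL and 293 in Control. Cox7c had 769, 564 and 288 CPM, and the X-linked Cox7b had 461, 396 and 215 CPM. These small subunits surround the catalytic core that mitochondrial DNA encodes, and all were highest in Skida1-deleted. Ndufa4, now placed in complex IV, had 981, 940 and 536 CPM. The nuclear subunits Cox4i1 and Cox5a went the other way by a small step, with 785, 889 and 1016 CPM for Cox4i1 and 392, 447 and 477 CPM for Cox5a. Cox5b did not join them, with log2 ratios of 0.55 to 0.63 in MLL-ENL over Control over the 5 lineages.

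In ATP synthase the catalytic head and the membrane part differed. Of the F1 head, Atp5b (the catalytic beta subunit) had 660 CPM in Skida1-deleted, 694 in MLL-ENL and 853 in Control HSPC-like cells, and Atp5d (delta) had 375, 422 and 558 CPM. Atp5e, the small epsilon subunit, was the F1 member that stood apart, with 736, 573 and 252 CPM, 2.28-fold higher in MLL-ENL than in Control [2.20–2.35]. The 5 small membrane subunits Atp5j2, Atp5k, Atp5l, Atp5md and Atp5mpl all passed 1.5-fold upwards in MLL-ENL over Control in every lineage. They summed to 2084 CPM in Skida1-deleted, 1514 in MLL-ENL and 740 in Control. Atp5md, known as DAPIT and linked to dimer formation of the enzyme, led at 2.60-fold in MLL-ENL over Control [2.46–2.75]. Atp5mpl, a small proteolipid of the enzyme, had 339, 241 and 106 CPM. The 3 genes for the same c-ring protein were close to level between MLL-ENL and Control, at 525 and 447 CPM for Atp5g1, 891 and 954 CPM for Atp5g2, and 345 and 392 CPM for Atp5g3. The direction of Atp5g1 and Atp5g2 turned under other settings. The peripheral stalk genes lay on both sides of 1. Atp5o (OSCP) and Atp5f1 (subunit b) had 296 and 463 CPM in MLL-ENL, against 421 and 597 CPM in Control. Atp5h and Atp5j were above 1 in MLL-ENL over Control in all 5 lineages, at log2 ratios of 0.10 to 0.29 and 0.17 to 0.49.

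**Figure D2:**
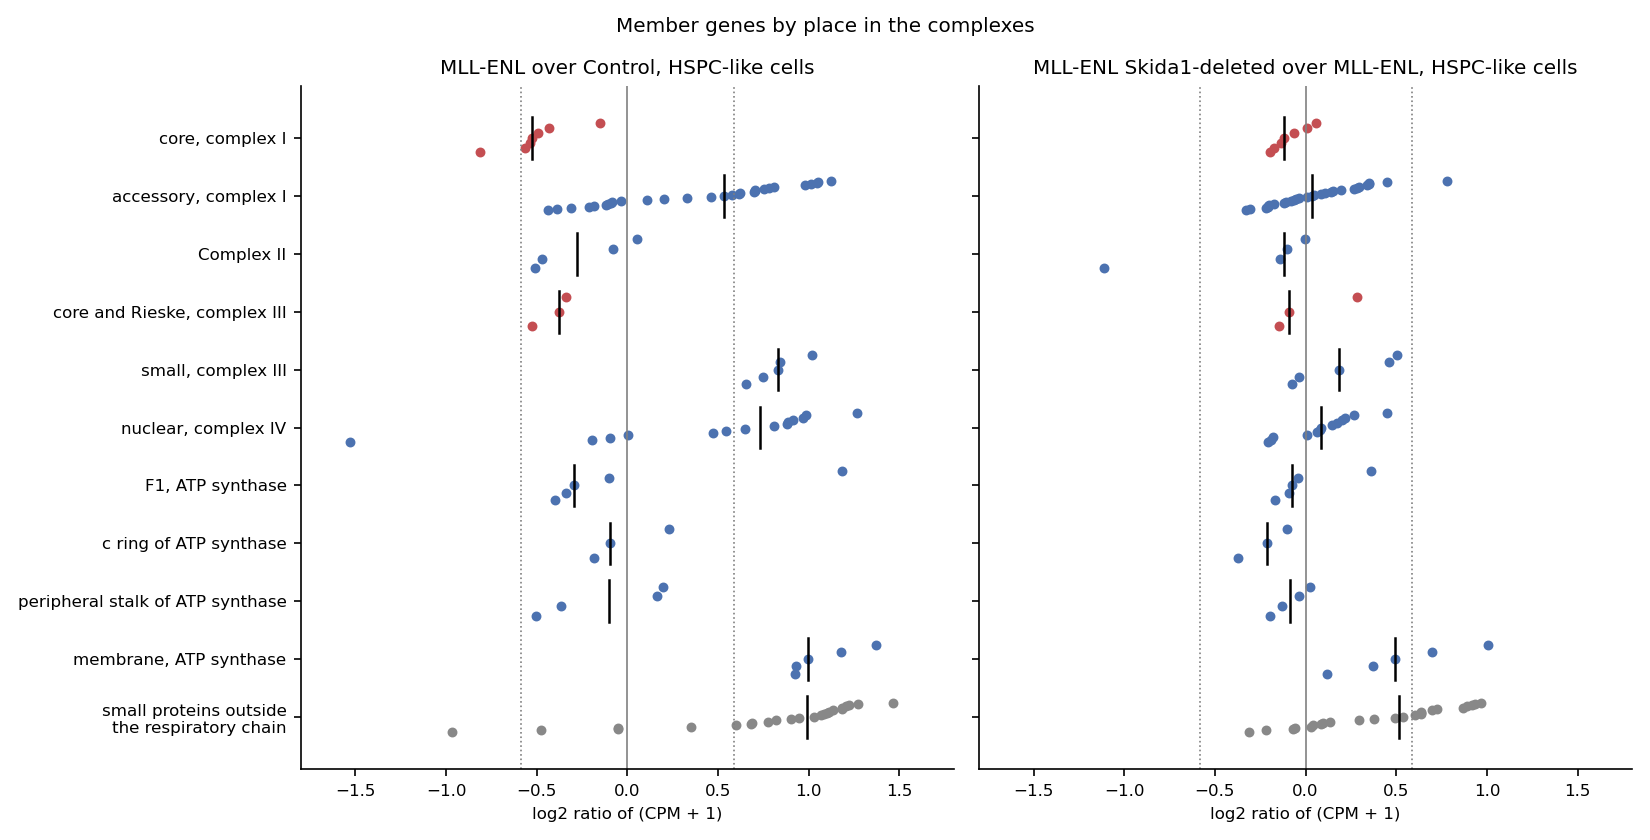
Log2 ratio of (CPM + 1) in HSPC-like cells for each measured gene (1 dot), by place in the complexes, with MLL-ENL over Control on the left and Skida1-deleted over MLL-ENL on the right. Black ticks are medians and dotted lines mark 1.5-fold. Red dots are nuclear core subunits of complexes I and III, and grey dots are small proteins outside the chain. On the left the red dots lie below 0 and the membrane subunits of ATP synthase between 0.93 and 1.37. On the right most dots lie near 0, with Sdhd at −1.11 and Atp5k at 1.01.

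Most genes on a list of small proteins that have no part in respiration moved in the same direction as the small subunits. This list of 24, among them Rps29, Rpl38, Polr2l, Sec61g, Tomm7 and Snrpg, was put together after the values of the members had been seen. In HSPC-like cells 19 of the 24 passed 1.5-fold upwards in MLL-ENL over Control (all genes 6.19%) and 1 downwards (13.9%). The median log2 ratio was 0.99, beside 0.997 for the 5 membrane subunits of ATP synthase. Since the list followed the values, this is a description only. Rps27, a ribosomal protein, was at 1.46, Tomm7, a small part of the import pore of the outer mitochondrial membrane, at 1.18, and Polr2l, a small subunit of RNA polymerases, at 1.11. Timm10 and Timm13, small import chaperones, were at −0.48 and −0.05, and Dynll1, a dynein light chain, at −0.97. In Skida1-deleted over MLL-ENL 11 of the 24 were at least 1.5-fold higher (all genes 1.39%) and 0 lower (0.69%). The median was 0.52, and Rps29 was highest at 0.97. The part of transcript length in either contrast was not tested.

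Between Skida1-deleted and MLL-ENL few members moved. In HSPC-like cells 78 members were measured, 3 were at least 1.5-fold higher in Skida1-deleted (1.39% of 7823 measured genes were) and 1 was at least 1.5-fold lower (0.69% of genes). Above 1 lay 39 members, where 45.1% of genes did. The median log2 ratio was 0.00 for members, against −0.02 for all genes. Higher and lower members numbered 3 and 1 in granulocyte progenitor-like cells (all genes 2.76% and 4.99%), in megakaryocyte-like cells (1.51% and 1.01%) and in erythroid-like cells (0.862% and 0.981%), and 5 and 1 in basophil-mast-like cells (2.88% and 3.83%). Atp5k, Atp5md and Ndufa3 were the higher ones and Sdhd the lower one in all 5 lineages, where 0.515% of 6022 genes were higher and 0.199% lower throughout, and Uqcr11 and Atp5mpl joined in basophil-mast-like cells. All other members stayed within 1.5-fold in every lineage where they were measured.

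Sdhd (ENSMUSG00000000171; chr9:50596340-50603849, GRCm38.p6) encodes the small membrane anchor that, with Sdhc, holds succinate dehydrogenase in the inner membrane and binds ubiquinone. In HSPC-like cells it had 1397 UMIs and 55.7 CPM [52.8–58.7] in Skida1-deleted, 2601 UMIs and 122 CPM [117–126] in MLL-ENL, and 3548 UMIs and 173 CPM [168–179] in Control. It fell by 1.11 on the log2 scale in Skida1-deleted, against MLL-ENL, or 2.18-fold [2.04–2.33]. The 3 libraries stepped in the same order in the other lineages, with 70.3, 184 and 228 CPM in granulocyte progenitor-like cells, 60.8, 135 and 185 CPM in megakaryocyte-like cells, 60.9, 141 and 164 CPM in basophil-mast-like cells, and 115, 249 and 298 CPM in erythroid-like cells. No interval of one library overlapped that of another in HSPC-like or erythroid-like cells. Fold intervals that left out 1, a looser mark, were common among members at this depth. In HSPC-like cells that of Skida1-deleted over MLL-ENL lay above 1 for 32 of 78 members and below 1 for 31. Erythroid-like cells had 34 above 1 and 40 below of 79. The same share over all measured genes was not taken, so these counts show nothing particular to the members.

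Between Skida1-deleted and MLL-ENL the other subunits of complex II did not fall as far as Sdhd. Sdha, the flavoprotein that oxidizes succinate, had 117, 117 and 113 CPM in Skida1-deleted, MLL-ENL and Control HSPC-like cells. Sdhb, the iron-sulfur subunit, had 119, 127 and 177 CPM, and Sdhc, the partner anchor, had 74.1, 81.7 and 86.6 CPM. The largest distance between Skida1-deleted and MLL-ENL among these 3 genes in HSPC-like cells was a log2 ratio of −0.14, for Sdhc. Over the 5 lineages it reached −0.41 for Sdhb, −0.28 for Sdhc and −0.17 for Sdha, while Sdhd lay between −1.38 and −1.11. In MLL-ENL over Control, Sdhb was below 1 in all 5 lineages, at −0.58 to −0.29, beside −0.51 to −0.22 for Sdhd. The genes beside Sdhd did not move with it either. Timm8b, 52 bases away, had 106, 98.7 and 77.2 CPM, a fold of 1.07 in Skida1-deleted over MLL-ENL [1.01–1.13], and Nkapd1 had 52.2, 52.8 and 46.0 CPM.

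Atp5k (ENSMUSG00000050856; chr5:108433246-108434399) encodes subunit e, which helps ATP synthase dimers bend the inner membrane. It had 363 CPM [356–371] in Skida1-deleted, 180 [175–186] in MLL-ENL and 89.8 (1840 UMIs) in Control HSPC-like cells. The fold was 2.01 in Skida1-deleted over MLL-ENL [1.94–2.09] and 2.01 in MLL-ENL over Control [1.90–2.12]. In erythroid-like cells Atp5k had 580, 285 and 122 CPM. The log2 ratio of Skida1-deleted over MLL-ENL ranged from 0.98 to 1.16 over the 5 lineages. Atp5k has 4 annotated -ps copies, so its counts are uncertain to the extent that reads were shared with them.

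Atp5md (ENSMUSG00000071528; chr19:47083471-47090647) had 343 CPM [336–350] in Skida1-deleted, 211 [205–217] in MLL-ENL and 81.2 [77.3–85.2] in Control HSPC-like cells, a fold of 1.62 in Skida1-deleted over MLL-ENL [1.57–1.68]. Atp5md overlaps Taf5, which had a fold of 0.915 in that contrast. Pdcd11, 88 bases away, had 59.2, 31.6 and 39.5 CPM, a fold of 1.88 in Skida1-deleted over MLL-ENL [1.71–2.06]. Ndufa3 (ENSMUSG00000035674; chr7:3617347-3620165), an accessory complex I subunit, had 181 CPM [175–186] in Skida1-deleted, 105 [101–109] in MLL-ENL and 52.6 [49.5–55.9] in Control, a fold of 1.72 in Skida1-deleted over MLL-ENL [1.64–1.81]. Its neighbours Tfpt and Prpf31 had folds of 1.08 and 1.09. Like Atp5k, both genes were highest in Skida1-deleted and lowest in Control, the reverse of the order of Sdhd.

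**Figure D3:**
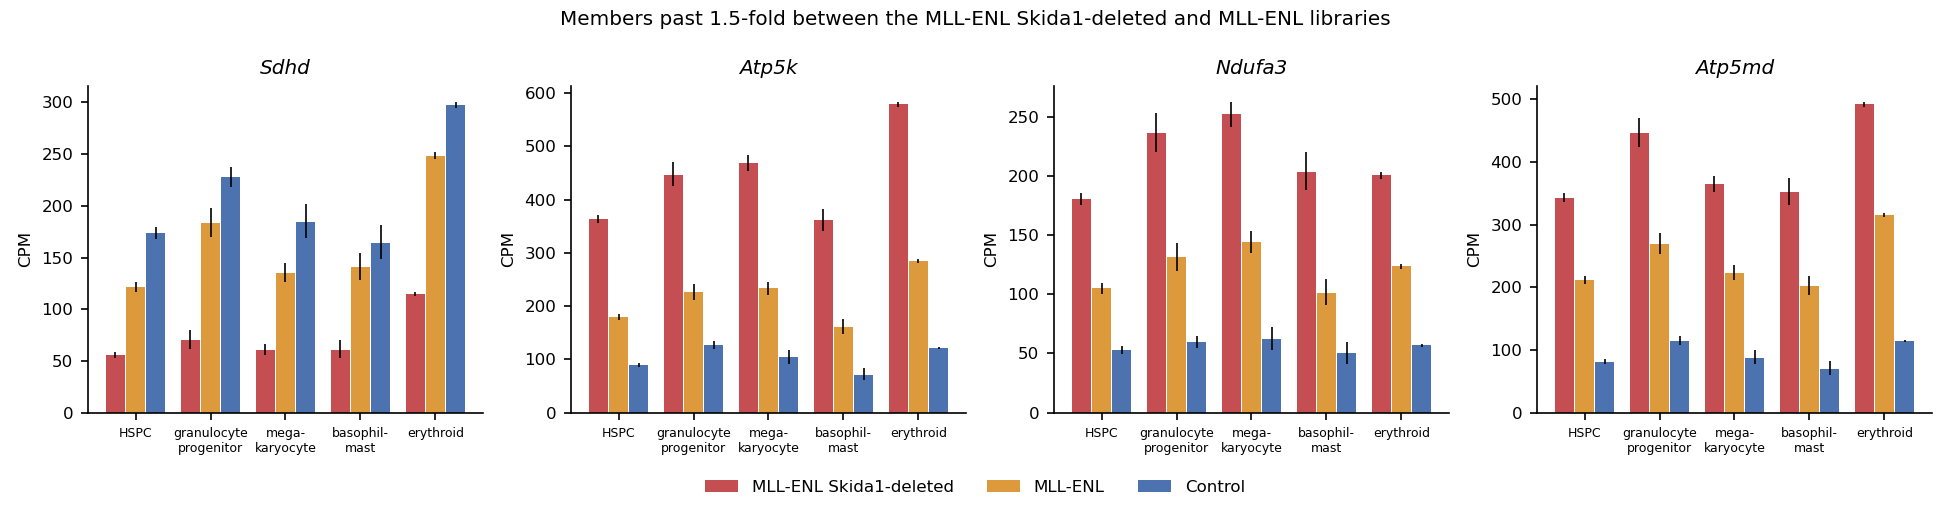
CPM (linear axis from 0) of Sdhd, Atp5k, Ndufa3 and Atp5md by lineage, with bars for MLL-ENL Skida1-deleted, MLL-ENL and Control and 95% Poisson intervals for counting error. Sdhd is lowest in Skida1-deleted in every lineage, at 55.7 CPM in HSPC-like cells, and the other 3 genes are highest there.

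The lineages differed as well. Erythroid-like cells stood 1.34-fold above HSPC-like cells in Skida1-deleted, 1.34-fold in MLL-ENL and 1.30-fold in Control, and granulocyte progenitor-like cells 1.19-fold in each library. Complex III had the widest step, at 1.59-fold, 1.505-fold and 1.45-fold for erythroid-like over HSPC-like cells. The mitochondrially encoded subunits went the other way, with erythroid-like over HSPC-like folds of 0.949, 0.864 and 0.882. The median member had a log2 ratio of erythroid-like over HSPC-like cells of 0.43 in Skida1-deleted, 0.45 in MLL-ENL and 0.36 in Control. Atp5g1, 1 of the 3 c-ring genes, was high in erythroid-like cells at 1.24, 1.19 and 1.07, and Cox7a2l, a factor of supercomplex assembly, was low at −0.85, −0.81 and −0.55.

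Among the tissue-restricted paralogs, Ndufa4l2 set erythroid-like cells sharply apart from the other lineages. Ndufa4l2, a hypoxia-induced relative of Ndufa4, had 118 CPM in Skida1-deleted, 129 in MLL-ENL and 122 in Control erythroid-like cells. In HSPC-like cells Ndufa4l2 had 1.99, 2.85 and 0.684 CPM, and it reached at most 10.9 CPM elsewhere, in MLL-ENL granulocyte progenitor-like cells. It was 59.2-fold higher in erythroid-like than HSPC-like cells of Skida1-deleted [44.9–79.9], 45.2-fold in MLL-ENL [35.2–59.1] and 178-fold in Control [106–325]. Its erythroid level was close between libraries, and it overlaps Shmt2. Cox4i2, the hypoxia-responsive relative of Cox4i1, showed the reverse pattern, with 7.42, 8.65 and 26.9 CPM in HSPC-like cells and 0.0298, 0.229 and 0.181 CPM in erythroid-like cells. Cox4i2 was 3.11-fold lower in MLL-ENL than in Control HSPC-like cells [2.63–3.70]. In granulocyte progenitor-like cells Cox4i2 had 2.06, 3.26 and 24.2 CPM, so Control stood well above both fusion libraries there. Cox4i2 overlaps Bcl2l1.

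Cox6b2, best known from testis, was present in every lineage. It had 113 CPM in Skida1-deleted, 93.5 in MLL-ENL and 38.3 in Control HSPC-like cells, and 238, 220 and 146 CPM in erythroid-like cells. Granulocyte progenitor-like cells had 111, 98.4 and 29.3 CPM of Cox6b2 and basophil-mast-like cells 150, 136 and 67.8 CPM. Both fusion libraries lay above Control in all 5 lineages, while the widely expressed Cox6b1 had 508, 479 and 259 CPM in HSPC-like cells. Among paralogs known from muscle, Cox6a2 had 2.55, 4.16 and 4.83 CPM and Cox7a1 2.35, 1.64 and 0.830 CPM in HSPC-like cells, both under the filter. Cox6a2 had 0 UMIs in megakaryocyte-like cells of each library. Cox8b had 1 UMI in all compared classes, in Control granulocyte progenitor-like cells. Cox8c had 1 UMI, in MLL-ENL erythroid-like cells, and Cox7b2 had 0. A count of 0 in Control erythroid-like cells allows up to 0.0247 CPM for Cox7b2.

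**Figure D4:**
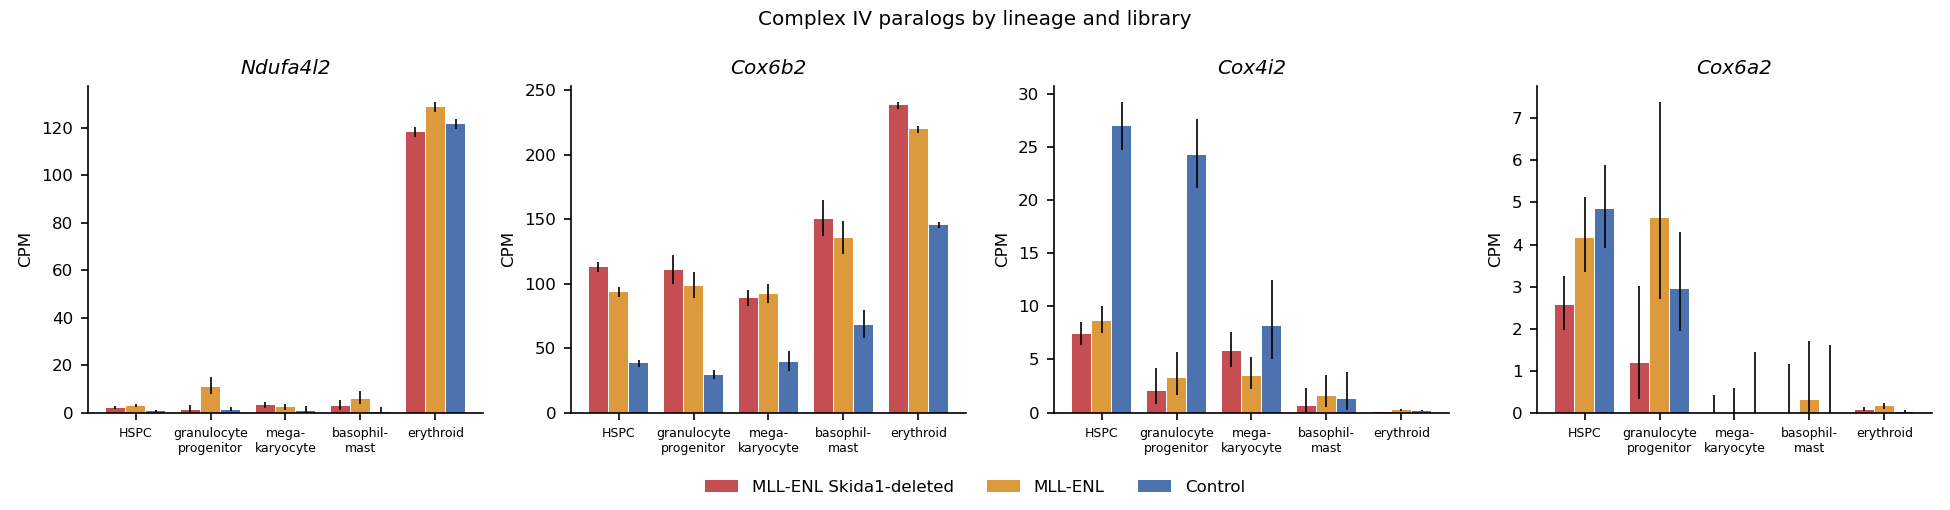
CPM (linear axis from 0) of the paralogs Ndufa4l2, Cox6b2, Cox4i2 and Cox6a2 by lineage, with bars for MLL-ENL Skida1-deleted, MLL-ENL and Control and 95% Poisson intervals for counting error. Ndufa4l2 lies above 100 CPM in erythroid-like cells and nowhere else, and Cox4i2 is highest in Control HSPC-like and granulocyte progenitor-like cells.

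The 13 mitochondrially encoded subunits, unlike the nuclear ones, summed lower in MLL-ENL than in Control in every lineage except granulocyte progenitor-like cells. They summed to 43590 CPM in Skida1-deleted, 50769 in MLL-ENL and 52878 in Control HSPC-like cells, folds of 0.859 in Skida1-deleted over MLL-ENL and 0.960 in MLL-ENL over Control. In granulocyte progenitor-like cells they summed to 40309, 47026 and 42403 CPM, and MLL-ENL over Control was 1.11-fold [1.103–1.115], the same direction as the nuclear sum. In megakaryocyte-like, basophil-mast-like and erythroid-like cells that fold was 0.986, 0.914 and 0.940. Skida1-deleted over MLL-ENL lay between 0.857 and 0.943 in all 5 lineages. All values of mitochondrially encoded genes come only from cells under the limit on mitochondrial UMIs, which bounds this same quantity. Over the whole libraries 285 Skida1-deleted, 426 MLL-ENL and 152 Control cells exceeded that limit. Its part in the differences of these sums was not tested. Single genes differed in HSPC-like cells. Lengths given with them are those of the genes in RefSeq, which need not be those of the transcripts. The part of length was not tested. mt-Nd4l, the smallest complex I gene of mitochondrial DNA at 297 bases, had 423, 235 and 124 CPM, and mt-Nd3, at 348 bases, had 694, 451 and 234 CPM. Both stood in the order seen for Atp5k. mt-Atp8, at 204 bases, had 224, 134 and 143 CPM, and so was higher in Skida1-deleted but not in MLL-ENL. mt-Nd6, at 519 bases, had 71.6, 57.6 and 36.3 CPM. The genes of 681 bases or more ranged from 0.743-fold to 1.28-fold in MLL-ENL over Control. Lowest among them was mt-Cytb, at 1144 bases, with 3700, 4601 and 6197 CPM, followed by mt-Co3, at 784 bases, with 8371, 10137 and 12169 CPM. The longest genes were above Control in both fusion libraries, with 6860, 7382 and 5762 CPM for mt-Co1, at 1545 bases, and 952, 805 and 656 CPM for mt-Nd5, at 1824 bases.

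**Figure D5:**
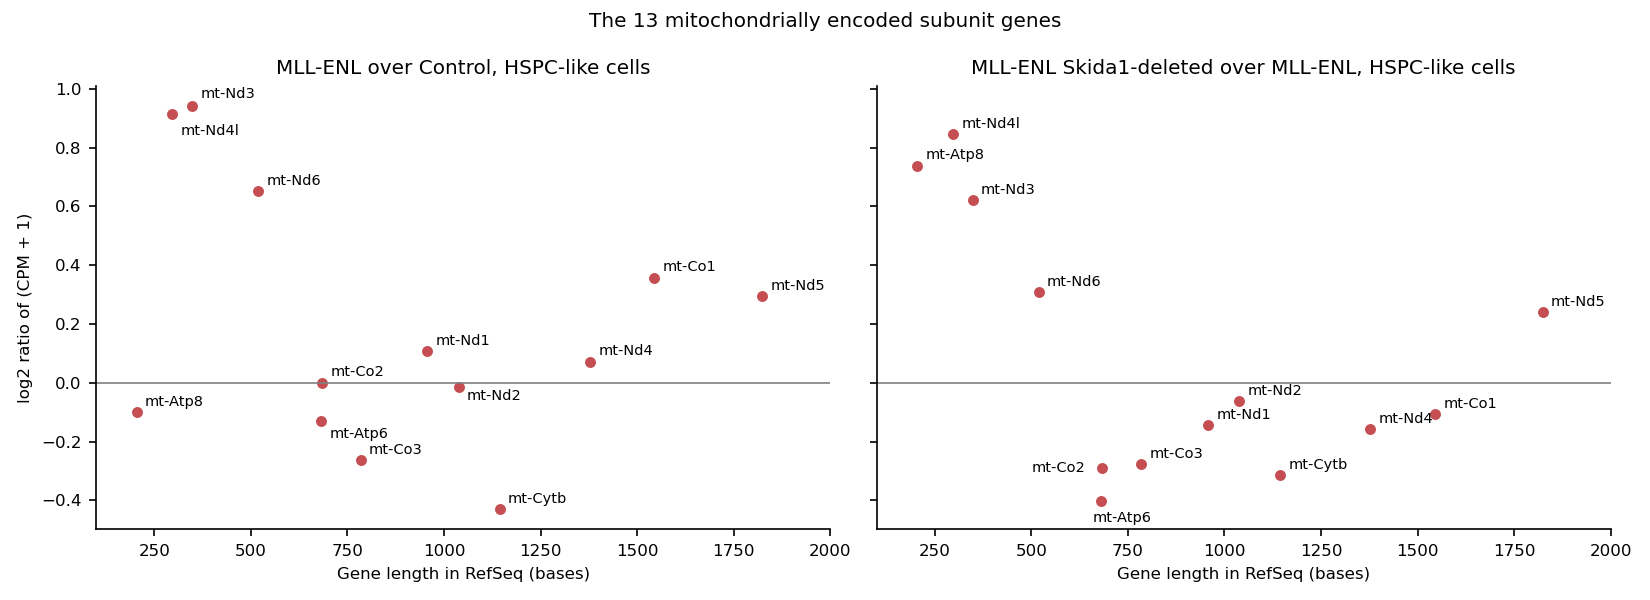
Log2 ratio of (CPM + 1) in HSPC-like cells against gene length in bases from RefSeq for the 13 mitochondrially encoded subunits (1 point each), with MLL-ENL over Control on the left and Skida1-deleted over MLL-ENL on the right. mt-Nd4l and mt-Nd3 stand high in both panels (0.91 and 0.94 on the left), while mt-Atp8, the shortest, is at −0.10 on the left and 0.74 on the right.

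Genes around the chain gave a mixed picture. Of 16 citric acid cycle genes measured in HSPC-like cells, 0 passed 1.5-fold upwards in MLL-ENL over Control, with a median log2 ratio of −0.24. The 2 that passed downwards, close to the share of all genes, were Fh1 and Dld. Fh1, fumarase, had 49.6, 60.4 and 113 CPM in Skida1-deleted, MLL-ENL and Control. Dld, the lipoamide dehydrogenase shared by several complexes, had 46.9, 49.4 and 79.7 CPM. Of 43 assembly factors measured, 5 were at least 1.5-fold higher (all genes 6.19%) and 11 at least 1.5-fold lower (13.9%). Their median was −0.34, against −0.12 for all measured genes. Pet100, a small complex IV assembly factor, had 142, 71.1 and 33.0 CPM and was the 1 assembly factor of 42 measured that passed 1.5-fold in Skida1-deleted over MLL-ENL, while 19 of them lay above 1. Of 5 electron carriers and related subunits, 0 passed in either direction, and cytochrome c itself, Cycs, had 228, 237 and 179 CPM. Of 9 regulators of mitochondrial biogenesis, 0 passed in MLL-ENL over Control, with Nrf1 at 29.4, 30.5 and 24.0 CPM and Yy1 at 130, 134 and 198 CPM. In Skida1-deleted over MLL-ENL, Myc was the 1 regulator of 10 that passed, lower at 56.2, 92.1 and 121 CPM. None of the 16 citric acid cycle genes and none of the 5 carriers passed in that contrast.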

How the data were processed

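RNA of 3 libraries was analysed, and the 10 antibody tags were not used. The deposited values are raw UMI counts per gene and barcode, made with Cell Ranger 6.1.2 per the file headers, though version 6.0.1 and genome mm10 stand in the submitters' processing notes. Whether the authors filtered cells further is not given. The lowest listed barcodes hold 500, 501 and 500 UMIs in Skida1-deleted, MLL-ENL and Control. From those counts, cells with at least 1000 UMIs, 500 genes and under 10% mitochondrial UMIs were kept. Scrublet in scanpy 1.11.5 called 618, 341 and 383 doublets, which were removed. Leiden clustering (resolution 1.0, 30 principal components, 2000 variable genes, 15 neighbours, no integration) left out the members and mitochondrial, Rpl, Rps and sex-linked genes. Clusters were named from at least 3 markers. Cells in unnamed clusters (2032, 1966 and 8) and in classes under 100 cells entered no comparison.

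UMIs were summed per class and library and scaled to CPM. A UMI counts the 3' end of a transcript and is not scaled by length. Ratios are log2 of (CPM + 1), with 1 as the pseudocount, and folds are ratios of CPM, with exact Poisson and exact conditional binomial intervals (scipy 1.17.1) that cover counting error only. A fold of 1.5 in either direction was the threshold. Steps were tested on simulated data. Positions and promoter windows came from RefSeq tables on GRCm38.p6, which is mm10, matched by symbol or synonym, and all 85 members had a position, on 19 chromosomes. Of them 16 overlap another protein-coding gene and 10 have annotated -ps copies, 15 in all.

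Members named were the 6 highest and 6 lowest per contrast in HSPC-like cells, those past 1.5-fold in every lineage, the highest of each complex, paralog sets and the 4 highest and 4 lowest erythroid-like over HSPC-like ratios. Others, and all non-members outside the lists, were chosen after their values were seen. The members and all lists were chosen with earlier results of these data known. Alternatives covered classes, resolution, filters, doublets, depth, scaling and pseudocount.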

Additional observations from a re-analysis of the deposited data

How the results depend on the processing

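With 1 library per genotype, animal, preparation, sex and genotype cannot be told apart, and counting error is widest for genes of few UMIs, while depth per cell also differed between libraries. No paired analysis was possible because each group has 1 library. The log2 ratio of the summed members stayed above 0 in every setting that gave a value, for both contrasts in HSPC-like and erythroid-like cells. In HSPC-like cells MLL-ENL over Control was 0.22. It was 0.25 with classes by each cell's marker score, 0.23 with members allowed among the variable genes, 0.24 with at least 3000 UMIs and 1500 genes per cell, 0.10 without the mitochondrial limit, 0.20 with cells thinned to 3000 UMIs, 0.33 as CPM outside globin, mitochondrial and ribosomal protein genes, 0.34 with median-ratio scaling and 0.18 with granulocyte progenitor-like cells added. Skida1-deleted over MLL-ENL was 0.050 there, 0.057 under the stricter filter, 0.059 thinned, 0.070 with median-ratio scaling and 0.043 with granulocyte progenitor-like cells added. In erythroid-like cells MLL-ENL over Control was 0.27. In the order marker score, members allowed, resolution 0.5, resolution 2.0, stricter filter, no mitochondrial limit, no doublet removal, thinned, CPM outside those genes and median-ratio scaling it was 0.24, 0.28, 0.30, 0.25, 0.26, 0.30, 0.27, 0.31, 0.35 and 0.40. In the same order Skida1-deleted over MLL-ENL, at 0.051, was 0.034, 0.047, 0.045, 0.044, 0.042, 0.032, 0.029, 0.057, 0.062 and 0.087. The cause of these shifts was not tested.

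Alternatives added after seeing the data were clustering on expression standardized within each library and leaving out 6 low-depth clusters. Standardized clustering gave 0.23 and 0.040 for MLL-ENL over Control and Skida1-deleted over MLL-ENL in HSPC-like cells, and 0.24 and 0.033 in erythroid-like cells, and the low-depth one 0.28 and 0.045 in erythroid-like cells. Resolution 0.5 and no doublet removal gave no HSPC-like value of MLL-ENL over Control, since 23 and 18 Control cells were left. Members past 1.5-fold in HSPC-like cells numbered 34 in MLL-ENL over Control, 32 higher and 2 lower (33 to 38 elsewhere, but 26 higher and 9 lower without the mitochondrial limit and 32 higher and 5 lower when thinned) and 4 in Skida1-deleted over MLL-ENL (5 without the filter on low counts). Turning was counted only for named members past 1.5-fold in the main run, and none of their values turned. In Skida1-deleted over MLL-ENL this covers 4 members. Of 600 values of the 50 named members in MLL-ENL over Control, 194 moved outside the main counting interval. Of 700 in Skida1-deleted over MLL-ENL, 34 did. Median-ratio scaling and CPM outside globin, mitochondrial and ribosomal protein genes raised the HSPC-like log2 ratios of MLL-ENL over Control nearly alike for all genes. Genes above 0 could therefore not fall below it under these 2 settings. Over the 11 alternatives run for this contrast, no mitochondrial limit among them, the 7 nuclear core subunits of complex I stayed below 0. So did the 3 nuclear ones of complex III. All 5 membrane subunits of ATP synthase and all 5 small subunits of complex III stayed above 0.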
